A study of Danio rerio with 2 samples.

Results

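The visual opsin genes of zebrafish were described in larvae injected with *miR-132* MO and in larvae injected with Ctrl MO. Opsins are the light-sensing receptors of photoreceptors, and each photoreceptor type makes the opsin that sets the wavelengths it absorbs. In zebrafish, rods use rhodopsin, encoded by *rho*, and 4 cone classes use opsins for ultraviolet (*opn1sw1*), blue (*opn1sw2*), green (*opn1mw1* to *opn1mw4*) and red light (*opn1lw1* and *opn1lw2*). An absorbed photon lets the opsin activate the G protein transducin, which starts the phototransduction cascade. Photoreceptors make opsin in large amounts for the outer segment, and opsin transcripts are common marks of photoreceptor differentiation in the larval retina.

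The members were the 9 genes above, picked by name, and an array probe was taken as a member when the RefSeq accession printed for it belongs to one of them. Of the 12858 genes that could be named on the array, 8 were members, with 21 probes of the 43603 transcript probes. *opn1lw1* had no matched probe and is not analysed here. The family was chosen for description with its *miR-132* MO to Ctrl MO ratios already known, so these ratios are given as measured and without a test.

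Gene expression was measured in 2 total RNA samples of whole zebrafish, each hybridised to 1 one-colour (Cy3) Agilent array on the same slide. The *miR-132* MO group received 8 ng of a morpholino against mature *miR-132* at the one-cell stage, and the Ctrl MO group received 8 ng of a control morpholino. Both groups were sampled at 3 dpf, had their chorions removed with pronase and were kept in diluted Hanks' solution, to which the study's general rearing protocol adds PTU, an inhibitor of pigment formation. Morpholinos are synthetic antisense oligonucleotides that pair with an RNA for the first days of development, so the *miR-132* MO group is a transient knockdown and not a mutant. The fish line and the number of larvae behind each array are not given in the sources used here, and an mRNA array does not measure *miR-132* itself. Each group has a single array, so there are no replicates and no value carries a p-value.

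The *miR-132* MO array was the brighter of the 2, with a 75th percentile of intensity of 866 against 731 on the Ctrl MO array. The share of transcript spots called well above background was 80.3% for *miR-132* MO and 88.0% for Ctrl MO, and 0 of the 43803 transcript spots of either array were saturated. Log2 intensities were therefore set relative to the 75th percentile of their own array before the ratio (*miR-132* MO over Ctrl MO) was taken on the log2 scale. A ratio was available for 12052 genes, with a median of -0.01 and quartiles of -0.21 and 0.18. Markers of photoreceptors (*gnat2*), lens (*cryaa*), neurons (*elavl3*), muscle (*mylpfa*) and pineal gland (*exorh*) were well above background on both arrays. The intensity of negative control spots had an SD of 17.2 on the *miR-132* MO array and 2.98 on the Ctrl MO array.

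All 6 opsin genes with a measurable ratio were lower in *miR-132* MO larvae, by 1.5-fold (*opn1lw2*) to 3.48-fold (*opn1mw1*). Their median log2 ratio was -1.35, and that of the 5 measured cone opsin genes was -1.45. At a threshold of 1.5-fold 6 of the 6 were lower, beside 8.02% of all genes (966 of 12052), and at 2-fold 5 of the 6 were lower, beside 3.48% of all genes. Because the family was chosen on this contrast, these counts describe it and support nothing further. In RNA from whole larvae, fewer photoreceptors and less opsin RNA in each photoreceptor cannot be told apart.

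**Figure D1:**
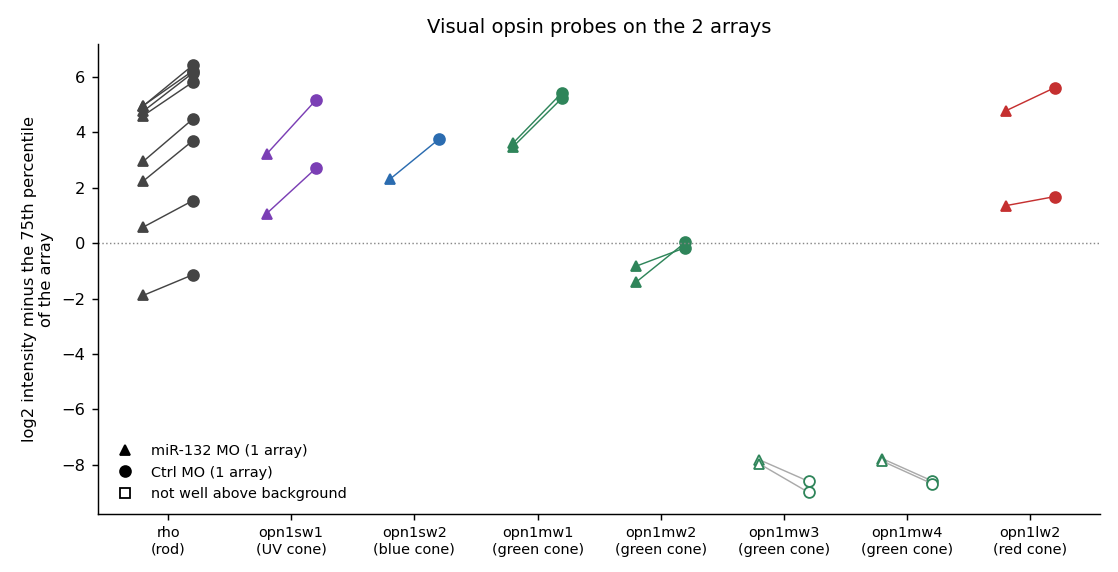
Log2 intensity of each visual opsin probe, minus the 75th percentile of its array, in *miR-132* MO (triangles) and Ctrl MO (circles), grouped by gene, with probes not well above background drawn open. All 17 probes above background lay lower in *miR-132* MO, and the 4 open probes of *opn1mw3* and *opn1mw4* have no usable order.

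*rho*, the rod opsin (NCBI gene 30295), was the member with the most probes, and each of its 8 probes was lower in *miR-132* MO larvae. Its probe with the highest Ctrl MO signal had an intensity of 26981 in *miR-132* MO and 62634 in Ctrl MO, a log2 ratio of -1.46. The next 3 probes had 27165, 23614 and 21141 in *miR-132* MO, against 54410, 51658 and 41096 in Ctrl MO, with log2 ratios of -1.25, -1.37 and -1.20. These 4 signals on each array stood far above the lowest intensity called above background, which was 16.8 on the *miR-132* MO array and 7.17 on the Ctrl MO array. A pair of probes of intermediate signal had 6732 and 4112 in *miR-132* MO and 16292 and 9482 in Ctrl MO, for log2 ratios of -1.52 and -1.45. The 2 probes with the lowest signal had 1297 and 235 in *miR-132* MO and 2115 and 331 in Ctrl MO, for log2 ratios of -0.95 and -0.74. Every *rho* probe thus pointed the same way, while the 2 dimmest gave the smallest differences, with a mean of -0.85 against -1.38 for the other 6.

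Averaged over its 8 probes, *rho* had a log2 ratio of -1.24 (SD over probes 0.27), which is 2.37-fold lower in *miR-132* MO. The SD here is between probes of 1 pair of arrays and holds no biological variation. Leaving out any 1 probe moved the mean only between -1.32 and -1.20. The probe values spanned 0.78, against a median span of 0.63 (range 0.29 to 1.63) over the 26 genes with at least 8 probes, of which 11 spanned more than *rho*. Among the 12052 genes, 279 had a lower log2 ratio than *rho*.

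*opn1sw1*, the ultraviolet cone opsin (NCBI gene 30582), was among the most reduced members. Its first probe read 8054 in *miR-132* MO and 26217 in Ctrl MO, and its second read 1815 in *miR-132* MO and 4754 in Ctrl MO. Both probes were lower in *miR-132* MO, with log2 ratios of -1.95 and -1.63, and the first of these was the lowest of any opsin probe. Their mean was -1.79 (SD over probes 0.22), or 3.46-fold lower, and 122 genes had a lower value.

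*opn1sw2*, the blue cone opsin (NCBI gene 30435), was read by a single probe. It had an intensity of 4282 in *miR-132* MO and 9890 in Ctrl MO. The log2 ratio was -1.45, or 2.74-fold lower in *miR-132* MO, and 196 genes had a lower value. There was no second probe to compare it with.

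The green cone opsins are 4 genes that follow one another without an intervening protein-coding gene in the RefSeq annotation (GRCz12tu), and they separated on these arrays into 2 that were measured and 2 that were not. *opn1mw1* (NCBI gene 30503) had probe intensities of 10562 and 9642 in *miR-132* MO and 31731 and 27684 in Ctrl MO. Its log2 ratios of -1.83 and -1.77 differed by only 0.07, and their mean of -1.80 (SD over probes 0.05) made it the lowest of the opsin genes, with 120 genes below it. *opn1mw2* (NCBI gene 360151) read 486 and 326 in *miR-132* MO and 654 and 744 in Ctrl MO. Both of its probes were lower in *miR-132* MO but by unequal amounts, with log2 ratios of -0.67 and -1.43, so that its mean of -1.05 carried the largest SD over probes of the family (0.54).

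*opn1mw3* and *opn1mw4* (NCBI genes 360152 and 30504) had 2 probes each, and none of the 4 was well above background on either array. Their intensities were 3.46 to 3.93 in *miR-132* MO and 1.43 to 1.91 in Ctrl MO, so no ratio is given for either gene. At this signal a difference in these 2 green opsins was not detectable. The probe sequences were not analysed here, so binding of one green opsin's transcript to another's probe was not tested.

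*opn1lw2*, a red cone opsin (NCBI gene 436716), had the smallest difference of the family when the probes of a gene were averaged. Its first probe read 23725 in *miR-132* MO and 35875 in Ctrl MO, a log2 ratio of -0.84. Its second probe read 2212 in *miR-132* MO and 2344 in Ctrl MO, a log2 ratio of -0.33, which was the only opsin probe under 1.5-fold. The mean was -0.59 (SD over probes 0.36), or 1.5-fold lower in *miR-132* MO, and it lay on the 1.5-fold line itself, with 965 of the 966 genes called lower below it. With only the brightest probe of each gene, *opn1lw2* was at -0.84 and *opn1mw2* had the smallest difference, at -0.67. In the RefSeq annotation *opn1sw2*, *opn1lw1* and *opn1lw2* also follow one another.

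**Figure D2:**
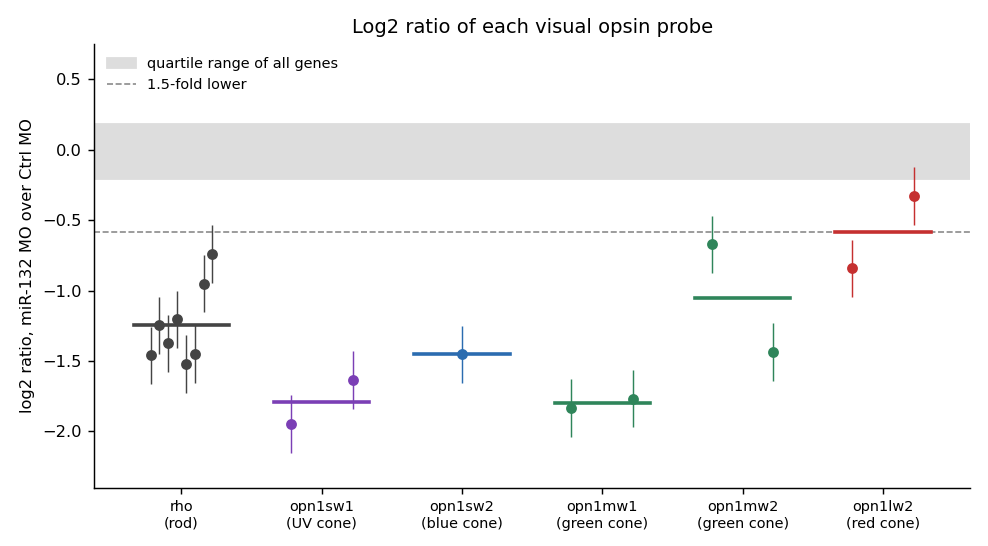
Log2 of *miR-132* MO over Ctrl MO for every measured visual opsin probe (points, error bars are the scanner's spot error of 0.20 to 0.21) and the mean of each gene (bars), with the range between the quartiles of all genes as a grey band. Every probe lay below the band, from -1.95 for *opn1sw1* to -0.33 for *opn1lw2*.

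Probe by probe, 16 of the 17 measured opsin probes were lower by 1.5-fold or more in *miR-132* MO, beside 8.7% of all probes (3201 of 36779), and 12 were at least 2-fold lower, beside 3.35%. The median opsin probe had a log2 ratio of -1.43. Spot noise was small against most of these values. The smallest, -0.33 for the second *opn1lw2* probe, stood beside a scanner error of 0.20 on its log2 ratio. The log2 ratio of a single spot had a median SD of 0.10 over 26 probes printed on 5 spots each (range 0.01 to 0.68). The error given by the scanner software was 10.0% to 10.1% of the signal at each measured opsin spot. It was thus nearly the same for dim and bright spots. The 31 to 42 transcript spots within 3 rows and columns of an opsin spot had median log2 ratios of -0.06 to 0.18.

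The rod and the cone classes were then contrasted within the arrays, where a constant scaling cancels. The log2 ratio of the ultraviolet cone opsin differed from that of *rho* by -0.55 (error from the spread of probes 0.24), and both of its probes lay below all 8 *rho* probes. The blue cone opsin differed from *rho* by -0.21 (error 0.32), and its probe lay inside the *rho* range. The green class, averaged over *opn1mw1* and *opn1mw2*, differed by -0.18 (error 0.18), with 2 of its 4 probes below every *rho* probe and 1 above every *rho* probe. The red class stood on the other side, with a log2 ratio 0.66 above that of *rho* (error 0.24), with 1 of its 2 probes above all 8 *rho* probes. The errors come from the pooled SD of the probes of 1 gene, 0.30 over 16 probes of 5 genes, and they do not cover differences between larvae.

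In the order of the log2 ratios, *opn1mw1* and *opn1sw1* came first with nearly the same value, 0.01 apart (error 0.30). *opn1sw2* followed at 0.34 above *opn1sw1* (error 0.37), *rho* at 0.21 above *opn1sw2* (error 0.32) and *opn1mw2* at 0.19 above *rho* (error 0.24). None of these steps exceeded the spread of probes. The last step, 0.47 between *opn1mw2* and *opn1lw2*, was larger than its error of 0.30 from the pooled SD. The SD over the probes of each gene was larger than the pooled one, at 0.54 for *opn1mw2* and 0.36 for *opn1lw2*. With the brightest probe the order of these genes reversed, so whether this step exceeded the spread of their probes cannot be told. The ends of the order, *opn1lw2* and *opn1sw1*, were 1.21 apart (error 0.30). The 2 measured green opsins differed by 0.75 from each other (error 0.30). The 2 probes of *opn1mw2* alone lay 0.76 apart, so whether the green class was uniform cannot be told.

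**Figure D3:**
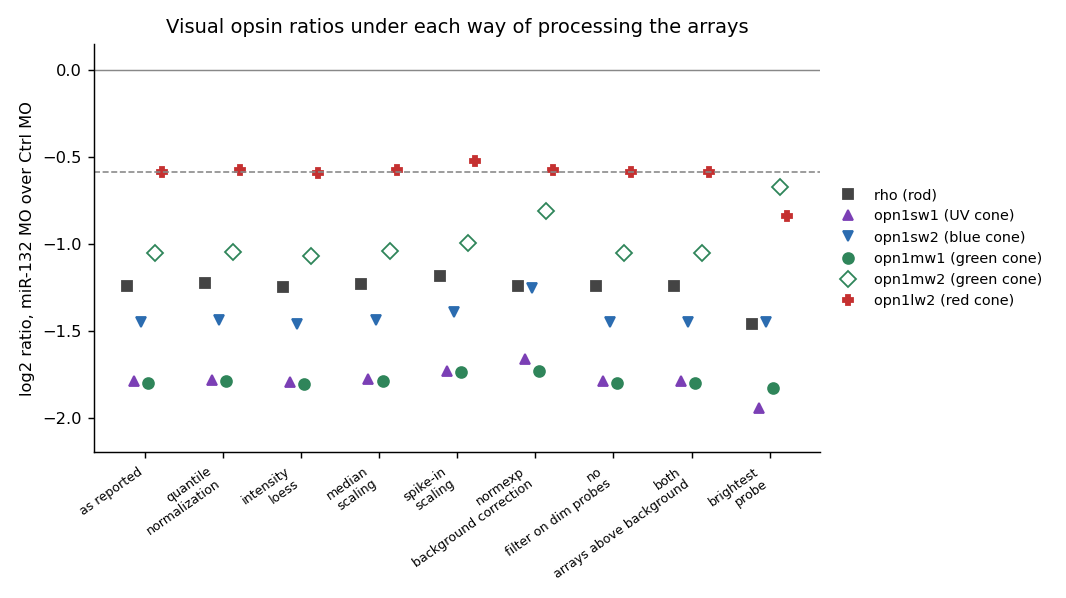
Log2 of *miR-132* MO over Ctrl MO of the 6 measured opsin genes under each way of scaling and filtering the arrays (1 symbol per gene, dashed line at 1.5-fold lower). *opn1lw2* moved between -0.84 and -0.53 around the line, and the other 5 stayed below it, *opn1mw2* up to -0.67.

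The position of *opn1lw2* on the 1.5-fold line depended on the scaling. Its log2 ratio was -0.57 after quantile normalization or median scaling, -0.53 after scaling by the spike-in controls and -0.58 after normexp background correction, each just short of the threshold of 0.585, so that 5 of the 6 genes were called under these settings. At 2-fold the call of *opn1mw2* also depended on the processing. It fell short after spike-in scaling (-0.99), after normexp (-0.81) and with its brightest probe (-0.67). The sign of the blue and the green contrast with *rho* also depended on the probes used, and with the brightest probe of each gene they were 0.01 and 0.21. The contrast of the red class kept its sign in all 9 alternatives, at 0.62 to 0.67, and that of the ultraviolet class in all 9, at -0.55 to -0.42. Median and spike-in scaling cancel in these contrasts, and the settings for dim probes do not touch the genes in them. Only quantile normalization, loess, normexp and the brightest probe could therefore have moved the red and ultraviolet contrasts. The authors' own normalized log2 values, where their selected table held an opsin probe, gave -1.44 for *opn1sw2*, -1.80 and -1.77 for *opn1mw1* and -1.45 for 1 probe of *opn1mw2*. Only these 4 opsin probes were found in that table. None was a probe of *rho*, *opn1sw1* or *opn1lw2*, so those genes could not be compared. The authors' table is labelled as a 1.5-fold selection, so the 4 probes compared had already been selected on fold. All 8 *rho* probes, both *opn1sw1* probes and the first *opn1lw2* probe were also more than 1.5-fold lower here. They were nevertheless not found in that table, and the reason was not tested.

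Opsins signal through transducin, a phosphodiesterase and a cyclic nucleotide-gated channel, and arrestins and kinases shut the signal off. Of 15 genes listed for rods, 8 were measured, and 6 were lower by 1.5-fold or more in *miR-132* MO (8.02% of all genes) while 1 was higher (4.08% of all genes). The median of the 8 was -1.05, and -0.66 after normexp background correction. The 8 include the rod transcription factors *nrl* and *nr2e3*, and *nr2e3* was the higher gene. Without these factors the median of the other 6 was -1.12. The 6 lower genes ranged from -1.27 for *saga*, a rod arrestin, to -0.62 for *cnga1a*, a subunit of the rod channel. *cnga1a* was read by 1 dim probe, with 69.5 in *miR-132* MO and 90.2 in Ctrl MO, and lay just past the 1.5-fold line. *gnat1*, the rod transducin alpha subunit, had 531 in *miR-132* MO and 1198 in Ctrl MO at its brightest probe and a mean log2 ratio of -1.17. *gngt1*, the transducin gamma subunit, had -1.10, and *sagb* had -0.995. The kinase gene *grk1a* was well above background in Ctrl MO only. It read 17.4 in *miR-132* MO and 32.6 in Ctrl MO, so its log2 ratio of -1.15 rests on a signal near background.

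Of 17 genes listed for cones, 12 were measured, with a median log2 ratio of -1.61, and 10 were lower by 1.5-fold or more in *miR-132* MO, again beside 8.02% of all genes, while none was at least 1.5-fold higher. The lowest was *pde6ha*, an inhibitory subunit of the cone phosphodiesterase, at -2.55, with 7583 in *miR-132* MO and 36364 in Ctrl MO at its brightest probe. Others were the cone transducin genes *gnat2* (-1.59), *gngt2b* (-1.55) and *gnb3b* (-1.71), the phosphodiesterase genes *pde6c* (-1.89) and *pde6hb* (-1.26), the arrestins *arr3a* (-1.48) and *arr3b* (-2.08), and the kinases *grk1b* (-1.92) and *grk7a* (-1.63). The 2 that did not reach 1.5-fold were *gnb3a* at 0.53 and *grk7b* at -0.41, which has a probe that was well above background in Ctrl MO only. Of the 12 cone genes 10 had a lower log2 ratio than *rho*, as did 1 of the 6 rod effectors. Genes listed as shared by rods and cones had a median of -1.25 over 18 measured of 25, and -0.94 after normexp background correction. Of the 18, 14 were lower by 1.5-fold or more (8.02% of all genes). A probe well above background on only 1 array is part of 3 of the 18. The list ran from *guca1c*, a guanylate cyclase activator, at -2.02 to *guca1ab.1* at 0.26. Whether both photoreceptor types make each of these genes was not tested.

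**Figure D4:**
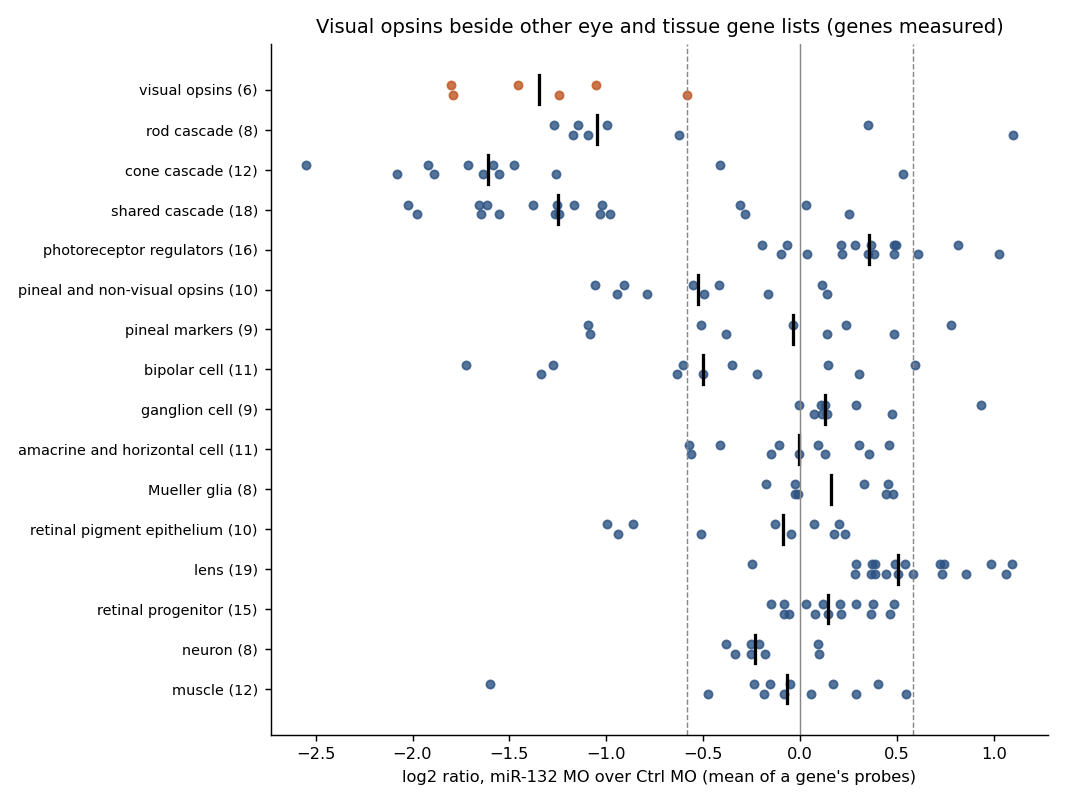
Log2 of *miR-132* MO over Ctrl MO of each measured gene (points) in the visual opsin family and the other gene lists, with the median of each list (vertical bars) and 1.5-fold lower and higher (dashed lines). The opsins and the rod, cone and shared cascade lists had medians of -1.35, -1.05, -1.61 and -1.25, and the regulators list had 0.36. After normexp background correction the rod list had -0.66 and the shared list -0.94. The rod list includes the transcription factors *nrl* and *nr2e3*.

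The listed regulators of photoreceptor fate and cone subtype, mostly transcription factors, did not share the direction of the opsins. Of 16 measured of 17, none was lower by 1.5-fold or more in *miR-132* MO and 3 were at least 1.5-fold higher, beside 4.08% of all genes (492 of 12052), with a median of 0.36. The 3 were *prdm1a* (1.03), *samd7* (0.82) and *otx2b* (0.61), and the lowest was *rxrga* at -0.20. *prdm1a*, *samd7* and *rxrga* were each read by 1 probe, and the lowest of the 4 *otx2b* probes was under 1.5-fold, at 0.37. *crx*, the cone-rod homeobox gene, had 13005 in *miR-132* MO and 8241 in Ctrl MO at its brightest probe and a mean log2 ratio of 0.35. Factors with a part in cone classes, though not each in only 1 of them, had 0.03 (*tbx2b*, ultraviolet cones), 0.37 (*foxq2*, blue cones), 0.49 (*six7*, green cones) and 0.38 (*thrb*, red cones). The rod factors were counted in the rod list and not among these 16. *nrl* had a log2 ratio of 0.35, and *nr2e3* had 395 in *miR-132* MO and 156 in Ctrl MO, which is 2.14-fold higher in *miR-132* MO. *nrl*, *nr2e3* and *foxq2* were each read by 1 probe.

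Other opsins, listed as pineal or non-visual, were mixed, and which cells made their RNA was not tested. Of 32 listed, 10 were measured, with a median log2 ratio of -0.52, and 4 were lower by 1.5-fold or more in *miR-132* MO (8.02% of all genes): the rhodopsin-like *rhol* (-1.06), the encephalopsin gene *opn3* (-0.94), the melanopsin gene *opn4.1* (-0.91) and *rgra* (-0.79). After normexp background correction the median of the 10 was -0.26. *rhol*, *opn3* and *opn4.1* were dim, with brightest probes of 60.5, 97.1 and 48.4 in *miR-132* MO. In Ctrl MO these probes read 118, 159 and 76.8. *exorh*, the rhodopsin of the pineal gland, had a brightest probe of 53182 in *miR-132* MO and 39296 in Ctrl MO, with a log2 ratio of 0.19. Its other probe was dim, with 62.0 in *miR-132* MO and 49.2 in Ctrl MO, and had a log2 ratio of 0.09. Between *rho* and *exorh* the difference in log2 ratio was -1.38, and whether *rho* probes also bind *exorh* transcript was not tested. The 9 measured pineal genes of 11 listed had a median of -0.03, which turned to 0.09 with the brightest probe of each gene. They ran from *gngt1* (-1.10) to *aanat2* (0.78), an enzyme of melatonin synthesis, with 2 lower and 1 higher by 1.5-fold or more, beside 8.02% and 4.08% of all genes. The 2 lower were *gngt1*, which is also in the rod list, and *asmt*. *asmt* read 16.5 in *miR-132* MO, not well above background, and 30.1 in Ctrl MO, so its log2 ratio of -1.08 is only a bound.

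Lists of genes for other eye cells were set beside the opsins. The RNA came from whole larvae, so any RNA of these genes made outside the eye is part of their ratios. The lists therefore do not measure the retinal cells alone. In the list for bipolar cells, which receive photoreceptor input, 5 of 11 measured genes were lower by 1.5-fold or more in *miR-132* MO (8.02% of all genes). Each of the 5 was read by 1 probe. Of them *cabp5a*, *nyx* and *grm6a* were dim, with 45.6, 68.7 and 26.9 in *miR-132* MO and 92.8, 146 and 34.5 in Ctrl MO. In the same list 1 was higher (4.08% of all genes), and values ran from *cabp5b* (-1.72) to *vsx1* (0.59). The median of -0.50 was -0.28 without a filter on dim probes and -0.26 after normexp background correction. In the list for the retinal pigment epithelium 3 of 10 were lower, beside the same 8.02% of all genes. They were *abca4a* (-0.995), *rpe65a* (-0.94) and *rlbp1b* (-0.86), and the highest was the pigment enzyme gene *tyr* (0.23). Which cells made the *abca4a* RNA was not tested. No gene was called 1.5-fold lower among 9 ganglion cell, 11 amacrine and horizontal cell, 8 Mueller glia and 15 retinal progenitor genes, although the ganglion cell gene *pou4f3* has only a bound. The medians of these lists were 0.13, -0.0042, 0.16 and 0.15, and that of the amacrine and horizontal cell list turned to 0.07 with the brightest probes. In the ganglion cell list *atoh7*, a factor for ganglion cell birth, was higher (0.94). *pou4f3* read 8.17 in *miR-132* MO, not well above background, and 14.2 in Ctrl MO, so whether it was 1.5-fold lower is not known. The ends of the other 3 lists were *gad1b* (-0.57) and *onecut1* (0.46), *glula* (-0.17) and *glulb* (0.48), and *rx1* (-0.15) and *six6a* (0.48).

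The lens list went the other way from the opsins, with 7 of 19 genes higher by 1.5-fold or more in *miR-132* MO, beside 4.08% of all genes, and a median of 0.51. The highest was *crybb1*, which was 2.14-fold higher. No lens gene was called lower, and the lowest, *cryabb*, has 1 probe of -0.16 and another that was above background in Ctrl MO only and gives just a bound. In the lists for neurons and muscle, the 8 neuron genes lay between *gap43* (-0.38) and *elavl3* (0.10). The 12 muscle genes had a median of -0.07, which turned to 0.0027 with the brightest probes, from *acta1b* (-1.60) to *ckmb* (0.55). Whether a change in the share of these tissues in the RNA plays a part in the opsin ratios was not tested.

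Over both arrays, the 5 genes with all probes above background whose log2 ratio lay nearest to the opsin median were *epd* (-1.34), *dgat1a* (-1.34), *acmsd* (-1.34), *zgc:162297* (-1.34) and *fabp2* (-1.36). They were within 0.0084 of the median. A likeness over 2 arrays says only that the ratios were close.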

How the data were processed

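The authors deposited, for each array, the scanner output of Agilent Feature Extraction (version 10.7 per the submitters' processing notes). The intensity values were deposited background-subtracted per spot, with no normalization between arrays, per the file headers. A deposited copy of the same values, equal within 0.495%, was not used. The authors also deposited a selected table with normalized values on a log2 scale (unit "other", several values joined in a cell), and its ratio column was not used. The steps behind that table are not given in the sources used here, and 1 of its lines with unequal cells was left out.

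Log2 intensity was taken relative to the 75th percentile of the transcript spots of its array. Spots of a probe and then probes of a gene were averaged. Probes marked as outliers were left out, and a probe was kept if either array called it well above background. Where only 1 array did, the value on the other array was raised to that array's lowest intensity above background if it lay below it. A value already above that intensity was used as measured. After this step, 1751 probes with no difference in the direction of the brighter array were given no ratio. Of 12052 genes with a ratio, 622 include a probe that only 1 array called well above background. Probes were named through their RefSeq accession (25069 probes, 12858 genes). The array design and the gene table (GRCz12tu) use different builds, so no coordinates are printed.

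The opsin members and the 15 gene lists (236 entries, 233 with a current symbol) were chosen with earlier results of these data known. Named genes were all members, the rod, cone and non-visual opsin list genes past 1.5-fold, a few fixed photoreceptor genes, the ends of each other list and the 5 genes nearest to the opsin median. The regulators past 1.5-fold and *gnb3a*, *grk7b*, *rpe65a*, *rlbp1b*, *asmt*, *cabp5a*, *nyx* and *grm6a* were added for completeness after their values were seen.

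The alternatives were quantile normalization, loess (span 0.3), median scaling, spike-in scaling (226 spots), normexp with an offset of 50 (on median signal), no filter on dim probes, both arrays above background, the brightest probe, a 2-fold threshold and probes counted one by one. A plain difference for dim probes was added after seeing the data. A match by gene name alone, promoter motifs and protein identity were not analysed here. Functions were tested on simulated arrays. Software was R 4.3.3 with limma 3.58.1, and Python 3.11.15 with numpy 2.4.6, pandas 2.3.3, matplotlib 3.10.9 and statsmodels 0.14.6. The number of arrays, 1 per group, limits the precision.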

Additional observations from a re-analysis of the deposited data

How the results depend on the processing

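No paired analysis was possible because there is only 1 array for each morpholino and the labels give no replicate numbers. A log2 value counted as moved when it changed by more than the spot SD of 0.10. Of 102 alternative log2 values for the opsins, 86 did not move, 13 moved and 3 changed sign. Part of the 86 could not have moved, so this count overstates the stability. Asking for both arrays above background, or a plain difference for dim probes, touches no measured opsin probe. Median and spike-in scaling cancel in the contrasts with *rho*. A gene with 1 probe is unchanged by taking its brightest probe. The count of opsin genes called lower was 5 in place of 6 in 5 settings (quantile, median and spike-in scaling, normexp, and a 2-fold threshold). With the brightest probe of each gene the median of the opsins was -1.46, *rho* -1.46, *opn1sw1* -1.95, *opn1mw2* -0.67 and *opn1lw2* -0.84, and the contrasts with *rho* reversed to 0.0073 for the blue and 0.21 for the green class. After normexp background correction *opn1sw1* was -1.66, *opn1sw2* -1.25 and *opn1mw2* -0.81, and the ultraviolet, blue and green contrasts were -0.42, -0.0080 and -0.0252. Without a filter on dim probes, which brings in *opn1mw3* and *opn1mw4*, the opsin median was -1.15 and the green contrast reversed to 0.96. The authors' normalized values gave -1.45 for *opn1mw2* because their table holds 1 of its 2 probes, which was -1.43 here. Counted one by one, 16 probes were at least 1.5-fold lower. The cause of the other shifts was not tested.

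Of all genes, 492 were higher and 966 lower in *miR-132* MO (66.3% of the called genes lower). Spike-in scaling gave 636 higher and 814 lower (56.1%), normexp 237 higher and 573 lower (70.7%), and no filter 764 higher and 1138 lower. Of 135 list medians under the alternatives, 124 did not move and 11 moved. The sign changed in 8 of the 135, over 3 lists with medians near 0 (pineal markers, amacrine and horizontal cell, muscle). Signal limits *opn1mw3* and *opn1mw4*, which were not well above background.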
